A study of Homo sapiens with 8 samples.

Results

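The pro-apoptotic BCL2 family was followed in HCT-116 cells through 4 drug schedules. The 10 genes were chosen by name: the effectors BAX and BAK1, and the BH3-only genes BBC3, PMAIP1, BIK, BCL2L11, BID, BAD, BMF and HRK. All 10 were found among the 23885 genes of the deposited tables, and 8 of them passed the filter on low counts, which BMF and HRK did not.

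HCT-116 is an established human colorectal cancer cell line. Total RNA, depleted of ribosomal RNA, was sequenced in 8 libraries, 2 for each of 4 groups that differed in what the cells were given for 12 h and, after washing, for a further 4 h. The vehicle group received DMSO in both periods. The 5-FU group received 40 µM 5-fluorouracil, an antimetabolite that blocks thymidylate synthase and activates p53, and then DMSO. The 3-MB-PP1 group received DMSO and then 2.5 µM 3-MB-PP1, a bulky ATP analogue that inhibits kinases engineered to accept it. The group given both drugs received 40 µM 5-FU and then 2.5 µM 3-MB-PP1. The series title names Cdk7, but no label says whether the cells carried an engineered kinase allele or came from a single clone. The design text mentions p53 inhibitors, which no sample label lists.

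BCL2 family proteins decide whether the outer membrane of the mitochondrion stays intact. Pro-survival members such as MCL1 and BCL2L1 hold the effectors BAX and BAK1 in check, and BH3-only proteins bind the pro-survival members or the effectors directly. Active BAX and BAK1 form oligomers that let cytochrome c out, which starts the caspase cascade. BBC3 (PUMA), PMAIP1 (NOXA) and BAX are textbook transcriptional targets of p53. Several BH3-only proteins are also controlled after transcription, BID by caspase cleavage and BAD by phosphorylation, which an RNA measurement does not record.

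The upstream sequences of 4 members that rose together with 5-FU are shown, because with 3-MB-PP1 alone 1 of them rose (PMAIP1), 1 fell (BBC3) and 2 did not pass the test. Each window holds the 250 bases before the RefSeq start, on the gene's own strand in build GRCh38.p14, and capitals mark motif matches. The read tables used hg19, so a window was tied to its gene by symbol alone. BBC3 lies at chr19:47232668-47232917 on the minus strand, PMAIP1 at chr18:59899746-59899995 on the plus strand, BAX at chr19:48954625-48954874 on the plus strand and BAK1 at chr6:33580277-33580526 on the minus strand.
BBC3: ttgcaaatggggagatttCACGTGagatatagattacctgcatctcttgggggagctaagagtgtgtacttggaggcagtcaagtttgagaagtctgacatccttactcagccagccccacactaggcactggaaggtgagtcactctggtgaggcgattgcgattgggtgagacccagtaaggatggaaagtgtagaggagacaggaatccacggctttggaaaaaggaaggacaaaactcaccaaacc
PMAIP1: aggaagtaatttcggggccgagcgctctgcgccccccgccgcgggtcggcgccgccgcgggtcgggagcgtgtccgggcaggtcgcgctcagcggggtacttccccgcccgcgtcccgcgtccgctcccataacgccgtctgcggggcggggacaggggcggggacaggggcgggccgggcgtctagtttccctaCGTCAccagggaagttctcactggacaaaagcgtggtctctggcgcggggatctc
BAX: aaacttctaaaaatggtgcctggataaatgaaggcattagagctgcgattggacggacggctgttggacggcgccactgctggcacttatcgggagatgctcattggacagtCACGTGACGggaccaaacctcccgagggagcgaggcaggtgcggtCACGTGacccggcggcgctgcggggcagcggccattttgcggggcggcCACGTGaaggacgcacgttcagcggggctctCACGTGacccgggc
BAK1: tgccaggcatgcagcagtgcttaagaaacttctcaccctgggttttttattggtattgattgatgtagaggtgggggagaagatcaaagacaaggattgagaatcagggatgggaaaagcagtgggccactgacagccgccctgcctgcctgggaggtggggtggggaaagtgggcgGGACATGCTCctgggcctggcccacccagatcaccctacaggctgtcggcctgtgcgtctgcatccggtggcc

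The RefSeq promoter table held 9 of the 10 members, all but BIK, and 3 motifs were searched on both strands. A symbol was counted when any of its windows held a match, and symbols with several windows, such as BID with 5, have more chances than those with 1. CACGTG, the core E-box that MYC and its partners bind, occurred 4 times in the BAX window, from 138, 93, 45 and 14 bases before the start. BBC3 held it once, from 232 bases before the start, and BID was the other member with a match, so 3 of 9 members had one against 7.73% of the 27305 symbols in the table (6.34% of its 35116 windows). TGACG, the core of the site that CREB and ATF factors bind, was found in 5 of 9 members against 24.9% of all symbols (21.2% of windows). It began 55 bases before the start of PMAIP1, and in BAX it overlapped the first CACGTG match. A p53 half-site was present in 1 of 9 members, BAK1, from 73 to 64 bases before its start, against 6.80% of all symbols (5.57% of windows). Matches describe letters in these windows only.

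Gene counts ranged from 10572104 to 50462222 per library, both extremes being libraries of the 3-MB-PP1 group. CDKN1A, the cell cycle inhibitor and standard p53 target, rose by 2.98 on the log2 scale with 5-FU alone (SE 0.05, edgeR adjusted p = 8.2e-24), which checks the 5-FU label. Transcripts of CDK7 itself fell with 3-MB-PP1 alone, by 0.42. Of 11 colorectal epithelial markers, VIL1 was below 1 RPKM in every library, while KRT8 and KRT18 were abundant. Other markers were low as well: KRT20 lay at 0.044 to 1.055 RPKM, CEACAM5 at 0.897 to 1.236 and CLDN3 at 2.18 to 3.131. The summed RPKM of these 11 markers was 1605 to 1680 with vehicle, 2913 to 2951 with 5-FU, 1724 to 1754 with 3-MB-PP1 and 2545 to 2565 with both drugs. This sum was higher in the libraries given 5-FU, as the effectors were, and its part in the members' results was not tested. Most of it came from KRT8, KRT18 and KRT19 (620, 569 and 270 RPKM in vehicle replicate 1). Of the 10 markers tested, 5 rose, 2 fell and 3 did not pass with 5-FU alone. EPCAM had 121 and 124 RPKM with vehicle and 97.0 in both 5-FU libraries. Of 12 markers of blood, vessel, stromal, muscle, liver and nerve cells, 8 stayed below 1 RPKM everywhere, among them the leukocyte gene PTPRC. COL1A2 and DCN were at 0 in all 8 libraries, and the 12 together summed to between 8.13 and 10.4 RPKM per library. The sum was 8.13 to 9.14 with vehicle, 8.78 to 9.30 with 5-FU, 10.1 to 10.3 with 3-MB-PP1 and 9.58 to 10.4 with both drugs. Of the 7 tested, 2 rose with 3-MB-PP1 alone, ALB and KDR: the liver gene ALB was at 0 to 0.068 RPKM in the 4 libraries without 3-MB-PP1 and at 1.08 to 1.44 in the 4 with it, and the endothelial gene KDR at 0.157 to 0.221 and 0.493 to 0.827. With both drugs these 2 and COL1A1 were called higher, and the part of these markers in the members' results was not tested.

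Both effectors rose about 2-fold with 5-FU and did not pass the test for a change with 3-MB-PP1. BAX, which shuttles from cytosol to mitochondrion, is listed at hg19 chr19:49458117-49465055, plus strand, in a noncoding-transcript row (NR_027882) that had its highest count. In TMM-scaled CPM, read counts of a gene relative to its library size, BAX stood at 34.6 and 38.2 with vehicle, 80.5 and 71.5 with 5-FU, 32.5 and 35.9 with 3-MB-PP1, and 74.7 and 71.8 with both drugs. The 4 libraries that had received 5-FU were all above the 4 that had not. BAX rose by 1.06 on the log2 scale with 5-FU alone (SE 0.08, edgeR adjusted p = 2e-11), a 2.09-fold change, and by 1.12 when 5-FU preceded 3-MB-PP1. With 3-MB-PP1 alone its difference was -0.11 (95% interval -0.28 to 0.06, adjusted p = 0.329), and after 5-FU it was -0.05 (-0.20 to 0.10, adjusted p = 0.620). In bulk RNA such as this, fewer cells of a type and less RNA per cell cannot be told apart.

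BAK1, the effector that resides in the outer mitochondrial membrane (hg19 chr6:33540323-33548070, minus strand), followed BAX. Its CPM was 26.1 and 29.7 with vehicle, 58.0 and 54.1 with 5-FU, 25.9 and 29.9 with 3-MB-PP1, and 51.8 and 49.98 with both drugs. Again every library given 5-FU lay above every library not given it. The rise with 5-FU alone was 1.00 on the log2 scale (SE 0.08, edgeR adjusted p = 2.9e-10), and with 5-FU before 3-MB-PP1 it was 0.90 (SE 0.08, adjusted p = 1.6e-09). 3-MB-PP1 gave a difference of -0.04 alone (95% interval -0.22 to 0.15) and -0.14 after 5-FU (-0.30 to 0.02), neither passing the test.

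**Figure D1:**
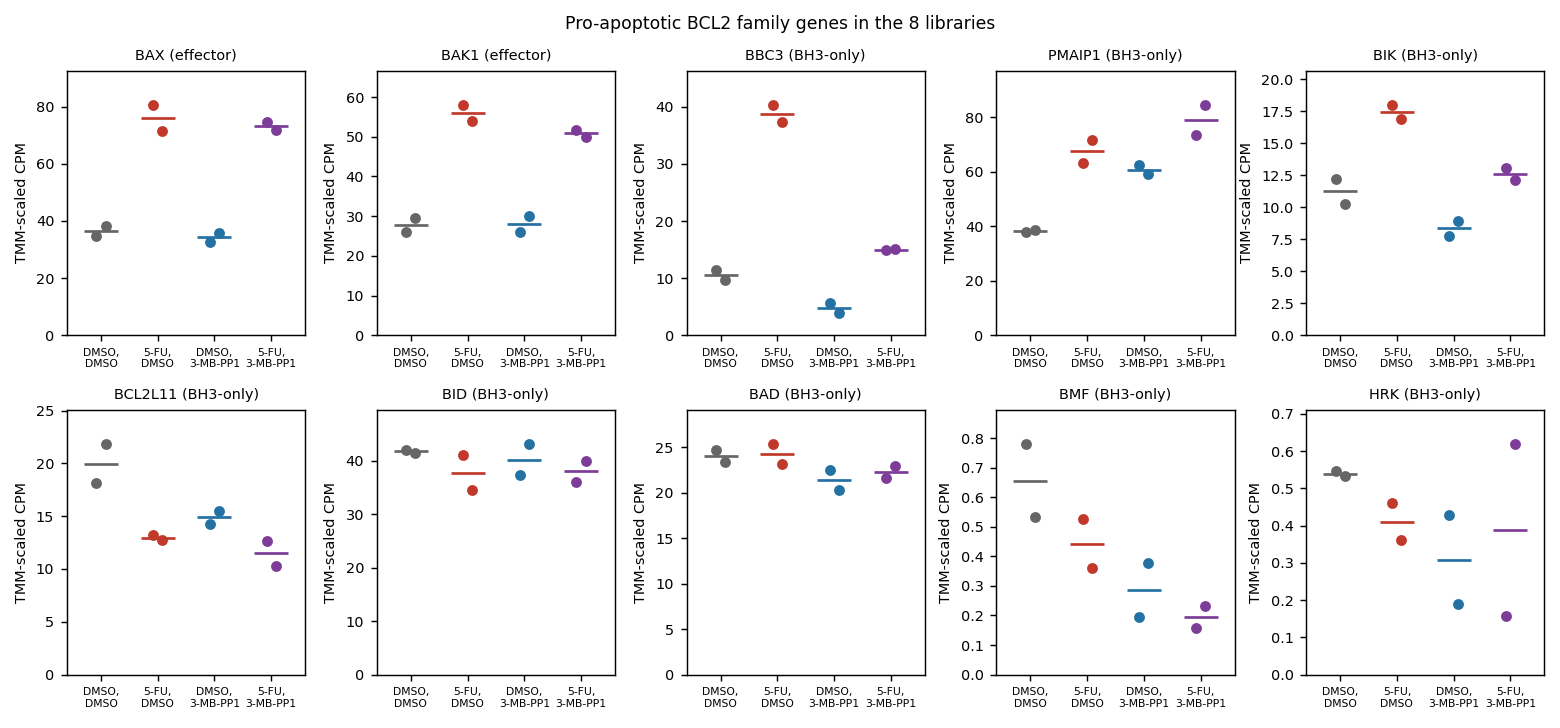
Level of each of the 10 genes in the 8 libraries, in TMM-scaled CPM on axes that start at 0. Points are libraries, 2 per group, and horizontal lines are group means; BAX and BAK1 separate by whether 5-FU was given, while BBC3 lies at 3.95 to 5.72 with 3-MB-PP1 and 37.3 to 40.3 with 5-FU.

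BBC3 had the widest range of the family on the log2 scale, as it rose with 5-FU and fell with 3-MB-PP1 in both settings. It encodes PUMA, a BH3-only protein that binds all the main pro-survival members (hg19 chr19:47724079-47736023, minus strand). With vehicle its CPM was 11.4 and 9.60, with 5-FU 40.3 and 37.3, with 3-MB-PP1 5.72 and 3.95, and with both drugs 14.9 and 15.1. No library of one group overlapped another group. 5-FU alone raised BBC3 3.70-fold, a log2 change of 1.89 (SE 0.12, edgeR adjusted p = 1.1e-12). 3-MB-PP1 alone lowered it by a log2 change of -0.99 (SE 0.15, adjusted p = 1.4e-05), and 3-MB-PP1 after 5-FU by -1.37 (SE 0.11, adjusted p = 1.5e-09). After both drugs BBC3 remained above vehicle by 0.51 (SE 0.14, adjusted p = 0.00325), a call that was lost without vehicle replicate 2 (0.39, adjusted p = 0.0651). The microRNA genes MIR3190 and MIR3191 lie within its span, with a mean count of 2.20 each.

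PMAIP1 rose with each drug given alone. It encodes NOXA, a BH3-only protein that binds MCL1 (hg19 chr18:57567192-57571538, plus strand). Its CPM was 37.7 and 38.5 with vehicle, 63.2 and 71.5 with 5-FU, 62.4 and 59.0 with 3-MB-PP1, and 73.3 and 84.3 with both drugs. The vehicle libraries were the lowest and those given both drugs the highest. The log2 change was 0.82 with 5-FU alone (SE 0.08, edgeR adjusted p = 4.1e-09) and 0.68 with 3-MB-PP1 alone (SE 0.08, adjusted p = 4.1e-07), and with both drugs against vehicle it was 1.05 (SE 0.08, adjusted p = 4.4e-11). The further step from 5-FU to both drugs was 0.23 (SE 0.07, adjusted p = 0.021). That call was lost with DESeq2 (adjusted p = 0.0744), with limma on log2 RPKM, and without 5-FU replicate 1 (0.13) or both-drug replicate 2 (0.11).

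BIK rose with 5-FU and fell with 3-MB-PP1, as BBC3 did, at a smaller size. BIK is a BH3-only protein anchored mainly in the endoplasmic reticulum (hg19 chr22:43506754-43525718, plus strand). The CPM values were 12.2 and 10.3 with vehicle, 17.98 and 16.9 with 5-FU, 7.75 and 8.94 with 3-MB-PP1, and 13.1 and 12.1 with both drugs. The libraries given both drugs overlapped those given vehicle. BIK rose by 0.63 with 5-FU alone (SE 0.12, edgeR adjusted p = 0.00018) and by 0.64 with 5-FU before 3-MB-PP1. It fell by 0.48 with 3-MB-PP1 alone (SE 0.13, adjusted p = 0.00724) and by 0.47 after 5-FU (SE 0.12, adjusted p = 0.00469). Both drugs against vehicle gave 0.16 (95% interval -0.12 to 0.44, adjusted p = 0.338). The fall with 3-MB-PP1 alone was not called by DESeq2 (adjusted p = 0.0746), nor without vehicle replicate 1 (-0.35) or 3-MB-PP1 replicate 1 (-0.33), and the fall after 5-FU was not called without both-drug replicate 2 (-0.42, adjusted p = 0.0557).

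BCL2L11 fell with each drug. It encodes BIM, a BH3-only protein that binds all the main pro-survival members and can activate BAX (hg19 chr2:111878491-111926022, plus strand). Its CPM was 18.2 and 21.8 with vehicle, 13.2 and 12.7 with 5-FU, 14.3 and 15.5 with 3-MB-PP1, and 12.7 and 10.3 with both drugs. Both vehicle libraries lay above every other library. The log2 change was -0.62 with 5-FU alone (SE 0.12, edgeR adjusted p = 0.000158), -0.45 with 3-MB-PP1 alone (SE 0.11, adjusted p = 0.00442) and -0.80 with both drugs (SE 0.13, adjusted p = 1.1e-05). Given before 3-MB-PP1, 5-FU lowered it by -0.36 (SE 0.13, adjusted p = 0.0262), while 3-MB-PP1 after 5-FU gave -0.18 (95% interval -0.45 to 0.10, adjusted p = 0.332). DESeq2 and limma did not call the falls with 3-MB-PP1 alone or with 5-FU before 3-MB-PP1. The first was also lost without vehicle replicate 2 (-0.31) or 3-MB-PP1 replicate 1 (-0.36), and the second without 3-MB-PP1 replicate 2 (-0.32) or both-drug replicate 2 (-0.22).

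**Figure D2:**
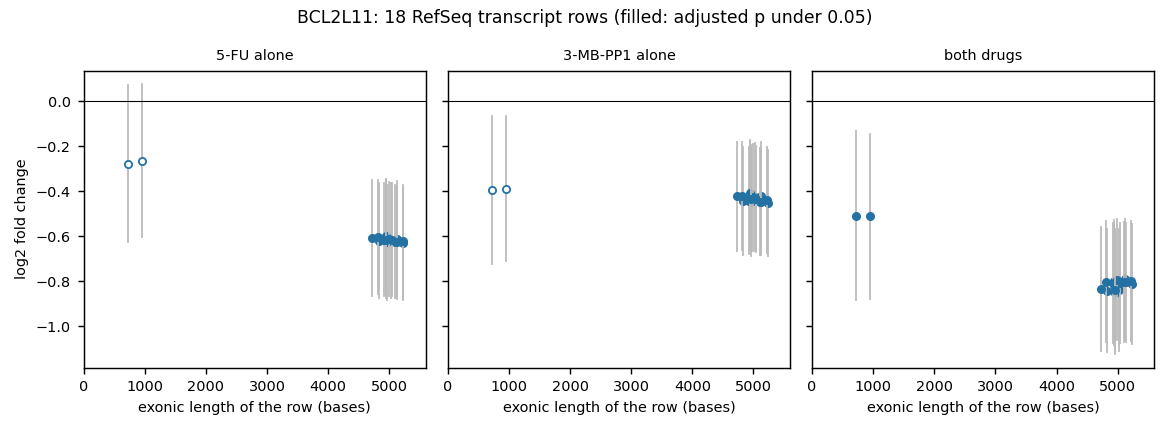
Log2 fold change of each of the 18 BCL2L11 transcript rows against its exonic length in bases, in 3 comparisons with vehicle, with 95% intervals as vertical lines. With 5-FU alone the 16 long rows lie between -0.63 and -0.60 and are filled (adjusted p under 0.05), while the 2 short rows, at -0.28 and -0.26, are open.

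The rows of BCL2L11 were not alike in the test. The gene had 18 RefSeq rows, and 16 of them, 4726 to 5230 bases long, ended at the same position and fell by 0.60 to 0.63 with 5-FU alone. The 2 short rows end upstream of that position: NM_207002 (722 bases, ending at hg19 position 111886423) had a change of -0.28 (SE 0.17, adjusted p = 0.199), and NM_001204113 (950 bases, ending at 111903861) had -0.26 (SE 0.16, adjusted p = 0.211). With both drugs these rows did pass, both at -0.51, beside -0.80 for the kept row NM_138621 in the same fit. Their mean counts were 112 and 111, against 265 for the kept row. In RPKM, which divides by transcript length, the short rows were higher. With vehicle NM_207002 had 8.97 and 11.7 RPKM and NM_001204113 had 6.97 and 8.62, against 3.48 and 4.18 for the kept row. The rows share reads, and the difference between short and long rows was not tested.

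BID and BAD passed the test in no comparison. BID, which caspase-8 cleaves into its active form (hg19 chr22:18216906-18257261, minus strand), had a CPM of 42.1 and 41.5 with vehicle, 41.1 and 34.5 with 5-FU, 37.4 and 43.1 with 3-MB-PP1, and 36.1 and 40.1 with both drugs. Its largest difference was -0.15 with 5-FU alone (95% interval -0.33 to 0.04, edgeR adjusted p = 0.195), and this became a call without 5-FU replicate 1 (-0.27, adjusted p = 0.0407). BAD, a BH3-only protein held inactive by phosphorylation (hg19 chr11:64037300-64052176, minus strand), stood at 24.7 and 23.3, 25.3 and 23.2, 22.4 and 20.2, and 21.6 and 22.9 CPM in the same order. Its difference with 5-FU alone was 0.01 (95% interval -0.19 to 0.21), and the intervals of its comparisons with vehicle lay within -0.34 and 0.21. BAD shares 366 bases with GPR137 on the opposite strand, whose mean count was 138, and whether counting used the strand is not given.

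BMF and HRK were close to the detection limit. BMF, a BH3-only protein linked to the cytoskeleton (hg19 chr15:40380092-40401075, minus strand), had 10 and 7 counts with vehicle, 8 and 6 with 5-FU, 10 and 4 with 3-MB-PP1, and 2 and 3 with both drugs. In CPM these were 0.78 and 0.53, 0.53 and 0.36, 0.20 and 0.38, and 0.16 and 0.23. HRK, known best from neurons (hg19 chr12:117298225-117319232, minus strand), had 7 and 7, 7 and 6, 22 and 2, and 2 and 8 counts in the same order. Fitted without the filter, neither gene passed in any comparison. For BMF the difference was -1.48 with 3-MB-PP1 alone (SE 0.66, edgeR adjusted p = 0.0963) and -1.73 with both drugs (SE 0.82, adjusted p = 0.0853). A change in these genes was not detectable at this depth.

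With 5-FU alone, 5 of the 8 tested members rose (BBC3, BAX, BAK1, PMAIP1, BIK), 1 fell (BCL2L11) and 2 did not pass. Of all 15705 genes tested, 44.0% were called in either direction, 21.3% higher and 22.7% lower. The median change of the 8 members was 0.73, against 0.00 for all genes tested. With 3-MB-PP1 alone, 1 member rose (PMAIP1), 3 fell (BBC3, BIK, BCL2L11) and 4 did not pass, where 28.5% of all genes were called, 11.6% higher and 16.9% lower. The members' median was -0.13 and that of all genes -0.01. 3-MB-PP1 after 5-FU raised 1 member (PMAIP1) and lowered 2 (BBC3, BIK), while 5 did not pass, beside 33.0% of all genes called, 15.7% higher and 17.2% lower. With 3 of 8 members called, that share is near the background.

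5-FU before 3-MB-PP1 raised the same 5 members as 5-FU alone and lowered BCL2L11, with 39.5% of all genes called, 19.6% higher and 19.8% lower. Its largest value was again that of BBC3, a 2.83-fold change (log2 SE 0.14, edgeR adjusted p = 2.1e-09), and PMAIP1 rose by 0.37 (SE 0.07, adjusted p = 0.000212). Both drugs against vehicle gave 4 members higher (PMAIP1, BAX, BAK1, BBC3), 1 lower (BCL2L11) and 3 that did not pass, beside 50.2% of all genes called, 23.9% higher and 26.3% lower. The order within this comparison put PMAIP1 at 1.05, BAX at 1.01, BAK1 at 0.87 and BBC3 at 0.51. The drugs were also set directly against each other. With 5-FU alone 4 members were higher than with 3-MB-PP1 alone, namely BBC3 by 2.87, BAX by 1.17, BIK by 1.11 and BAK1 by 1.04. Of all genes 53.9% were called in this contrast and 27.4% were higher. With 4 of 8 members called, the share called in either direction is near the background. PMAIP1 differed by 0.14 (95% interval -0.01 to 0.29, adjusted p = 0.0983) in that contrast. These comparisons share libraries, so their values stand side by side and are not independent.

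**Figure D3:**
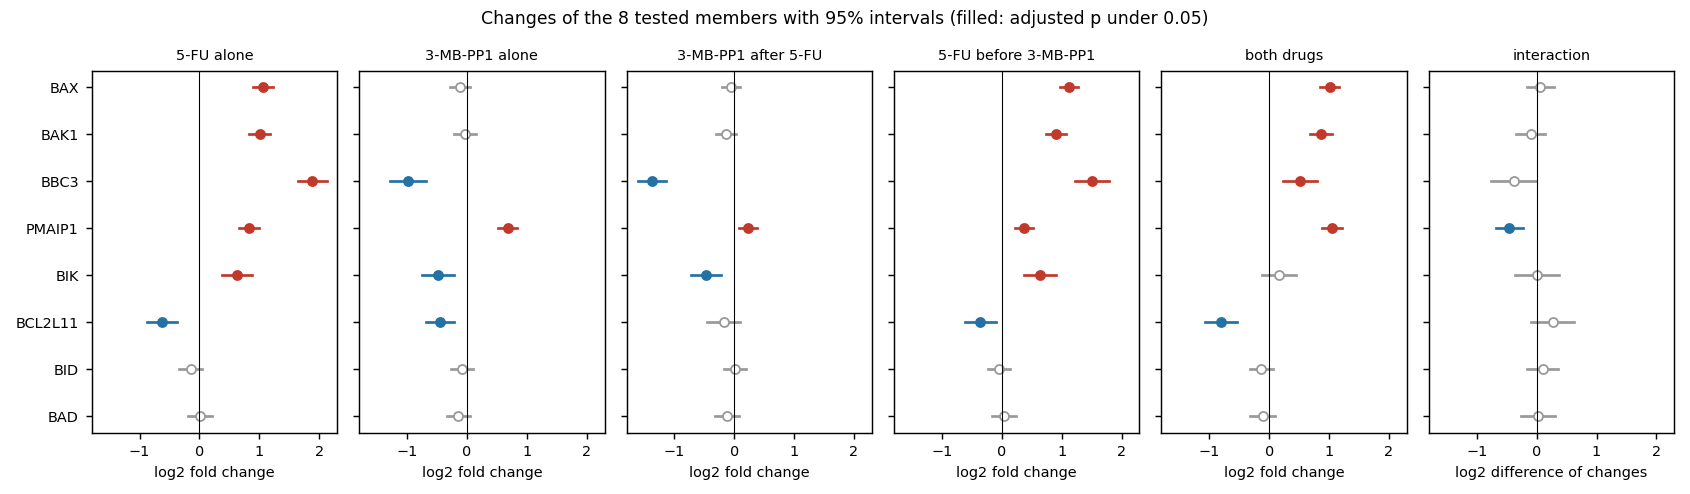
Log2 fold changes of the 8 tested members in 5 comparisons and, at the right, the difference of changes (interaction), with 95% intervals as horizontal lines. Filled points passed at an adjusted p under 0.05, red for higher and blue for lower; with 3-MB-PP1 alone PMAIP1 lies at 0.68 and BBC3 at -0.99.

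Whether the response to 5-FU differed with the later drug was tested by the interaction. PMAIP1 was the member that passed, 1 of 8, where 4.20% of all genes were called, 2.13% higher and 2.07% lower (335 and 325 genes, against 27 and 110 with limma on log2(RPKM + 0.1)). The PMAIP1 rise with 5-FU was smaller by 0.45 on the log2 scale when 3-MB-PP1 followed, an interaction of -0.45 (SE 0.11, edgeR adjusted p = 0.0147). With limma on log2(RPKM + 0.1) the adjusted p was 0.0992, and leaving out any of 5 libraries in turn gave 0.0533 to 0.0937. BBC3 gave -0.39 (95% interval -0.77 to -0.003, adjusted p = 0.277), so its fall with 3-MB-PP1 was not shown to differ between vehicle and 5-FU cells. For BAX the interaction was 0.06 (-0.16 to 0.29), for BAK1 -0.10 (-0.35 to 0.14), for BIK 0.01 (-0.35 to 0.38) and for BCL2L11 0.27 (-0.10 to 0.63).

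The order of the 4 treatments differed from gene to gene. BBC3 was highest with 5-FU, then with both drugs, with vehicle and with 3-MB-PP1, and every neighbour in that order differed in the test. PMAIP1 ran from both drugs through 5-FU and 3-MB-PP1 to vehicle, and the neighbours 5-FU and 3-MB-PP1 did not differ beyond their spread. BAX and BAK1 each formed a high pair and a low pair of groups with no called difference inside a pair. In BIK, both drugs and vehicle were the neighbours that did not differ. In BCL2L11 vehicle stood above 3-MB-PP1, and below that no neighbours differed. No neighbours differed for BID or BAD.

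Among the other members with several rows, the rows of a gene lay close together. The 4 BBC3 rows rose by 1.77 to 1.89 with 5-FU alone and had changes of -1.15 to -0.95 with 3-MB-PP1 alone. The 5 BAX rows rose by 1.03 to 1.12 with 5-FU alone, so the noncoding row did not stand apart. None of the 7 BID rows passed there, at -0.19 to -0.15. Rows of a gene share exons and reads and are no independent measurements.

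Levels between genes were compared in deposited RPKM, which divides by transcript length. With vehicle BAX was the most abundant member at 39.2 ± 2.72 RPKM (SD, n = 2), followed by PMAIP1 at 19.2 ± 0.271, BAD at 19.2 ± 0.785 and BID at 18.6 ± 0.176. The libraries of BAD overlapped those of PMAIP1 and of BID, while those of PMAIP1 lay above those of BID. BAK1 had 12.4 ± 1.11 RPKM, BIK 11.5 ± 1.41, BBC3 5.604 ± 0.672 and BCL2L11 3.83 ± 0.492, while HRK and BMF stood at 0.352 and 0.137. BBC3 thus took 4.31% of the summed RPKM of the family with vehicle, 9.50% with 5-FU, 2.01% with 3-MB-PP1 and 4.01% with both drugs. PMAIP1 took 14.8%, 15.6%, 23.8% and 19.9% in the same order, and BAX 30.1%, 37.4%, 28.5% and 39.5%. BAX accounted for a larger part of the summed RPKM than any other member in all 4 groups. These levels, ranks and shares are those of the kept rows, and other rows can change the order. With vehicle the BCL2L11 row NM_207002 had 8.97 and 11.7 RPKM, above the kept row of BBC3. The BAD row NM_032989 had 24.1 and 23.5 RPKM, above PMAIP1.

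The sum over the 10 genes was 129 and 131 RPKM with vehicle, 232 and 213 with 5-FU, 130 and 136 with 3-MB-PP1, and 201 and 206 with both drugs. The 4 libraries given 5-FU lay above the other 4. The effectors together had 51.6 ± 3.83 RPKM with vehicle, 109 ± 9.40 with 5-FU, 50.7 ± 4.25 with 3-MB-PP1 and 103 ± 2.29 with both drugs (SD, n = 2), and the 8 BH3-only genes had 78.4 ± 2.33, 114 ± 3.64, 82.1 ± 0.00707 and 99.8 ± 5.78. The 6 pro-survival genes summed to 133 ± 4.46, 175 ± 3.10, 169 ± 1.95 and 174 ± 0.0849 RPKM. The ratio of the 10 members to the 6 pro-survival genes was 0.979 ± 0.0216 with vehicle, 1.27 ± 0.0520 with 5-FU, 0.786 ± 0.0161 with 3-MB-PP1 and 1.17 ± 0.0195 with both drugs. It was lowest in the libraries given 3-MB-PP1 alone and highest in those given 5-FU alone. These sums describe RNA, not protein, and were not tested.

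**Figure D4:**
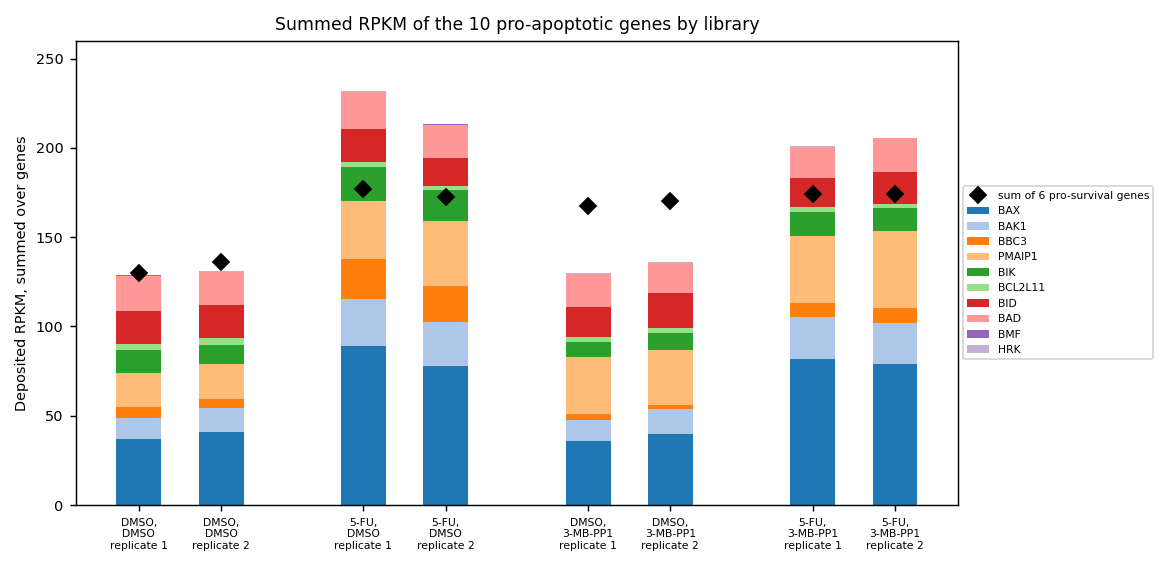
Deposited RPKM of the 10 members stacked for each of the 8 libraries, on an axis that starts at 0, with a black diamond at the sum of 6 pro-survival genes. The diamonds lie above the bars in both 3-MB-PP1 libraries (168 and 170 against 130 and 136). They lie slightly above them in both vehicle libraries (129.7 and 136.0 against 128.9 and 131.1) and below them in the 4 libraries given 5-FU.

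The pro-survival genes gave mixed calls. Of BCL2, BCL2L1, BCL2L2, MCL1, BCL2A1 and BCL2L10, 4 were tested; 2 rose and 1 fell with 5-FU alone, 2 rose with 3-MB-PP1 alone, 1 rose with 3-MB-PP1 after 5-FU, 2 rose and 2 fell with 5-FU before 3-MB-PP1, and 3 rose and 1 fell with both drugs. BCL2L1 (BCL-XL) had 60.8 and 62.2 RPKM with vehicle, 98.6 and 94.8 with 5-FU, 77.7 and 77.4 with 3-MB-PP1, and 89.8 and 89.2 with both drugs. It rose by 0.63 with 5-FU alone (SE 0.05) and by 0.29 with 3-MB-PP1 alone (SE 0.05). MCL1, the partner of NOXA, had 60.1 and 64.9, 67.4 and 66.5, 81.3 and 84.9, and 73.4 and 74.7 RPKM in the same order, and rose by 0.37 with 3-MB-PP1 alone (SE 0.05) and by 0.14 after 5-FU (SE 0.05). BCL2 fell by 1.04 with 5-FU alone (SE 0.23) from a level under 1 RPKM.

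Of 12 tested BCL2-related genes outside both groups, 2 rose and 3 fell with 5-FU alone, 3 rose and 2 fell with 3-MB-PP1 alone, 1 rose and 4 fell with 3-MB-PP1 after 5-FU, 1 rose and 4 fell with 5-FU before 3-MB-PP1, and 2 rose and 6 fell with both drugs. BOK, an effector-like relative of BAX, had a change of 0.01 with 5-FU alone, and fell by 0.45 with 3-MB-PP1 alone and by 0.47 after 5-FU (SE 0.09 each). BCL2L12 fell by 0.99 with 5-FU alone (SE 0.09). The mitophagy receptors BNIP3L and BNIP3 rose by 0.50 and 0.41 with 3-MB-PP1 alone (SE 0.08 each). After 5-FU, BNIP3L fell by 0.28 with 3-MB-PP1 (SE 0.09, edgeR adjusted p = 0.0125), and BNIP3 had a change of -0.10 that did not pass.

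Among 19 tested genes for transcription factors and regulators known to act on members, 6 rose and 6 fell with 5-FU alone, 3 rose and 7 fell with 3-MB-PP1 alone, 1 rose and 9 fell with 3-MB-PP1 after 5-FU, 4 rose and 7 fell with 5-FU before 3-MB-PP1, and 5 rose and 10 fell with both drugs. E2F1 and TP73 fell by 2.55 and 2.13 with 5-FU alone, and ATF3 and JUN rose by 1.76 and 1.75 (edgeR adjusted p at most 1.5e-12 for these 4). MYC fell by 0.82 with 3-MB-PP1 alone and by 1.78 after 5-FU (SE 0.06 each), and ATF4 by 1.11 and 1.17.

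A list for the mitochondrial pathway held genes of the cytochrome c, caspase and inhibitor steps, CASP8 among them. It also held the VDAC genes, MTCH2, DNM1L, OPA1, BAG6, AIFM1 and ENDOG, and all its 24 genes were tested. Of these 5 rose and 8 fell with 5-FU alone, 6 fell and 18 did not pass with 3-MB-PP1 alone, 7 rose and 6 fell with 3-MB-PP1 after 5-FU, 7 rose and 4 fell with 5-FU before 3-MB-PP1, and 6 rose and 7 fell with both drugs. BIRC5 (survivin), a gene of the mitotic programme as well, fell by 1.23 with 5-FU alone, and BIRC3, an inhibitor of apoptosis, rose by 1.03. HTRA2, a mitochondrial protease, fell by 0.40 with 3-MB-PP1 alone and by 0.59 after 5-FU. APAF1, which assembles the apoptosome, rose by 0.56 with 5-FU before 3-MB-PP1.

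Nearly all p53 targets outside the family rose with 5-FU. Of 24 tested, 23 rose with 5-FU alone and 1 did not pass, and their median change was 1.31, above the members' median of 0.73. With 3-MB-PP1 alone 6 rose and 7 fell, after 5-FU 5 rose and 11 fell, with 5-FU before 3-MB-PP1 23 rose, and with both drugs 22 rose. MDM2, the p53 ubiquitin ligase, fell by 1.25 with 3-MB-PP1 after 5-FU (SE 0.05), and CDKN1A by 0.89 (SE 0.05), beside -1.37 for BBC3 and -0.05 for BAX. In the interaction 7 of the 24 were called, all of them lower. The comparisons share control libraries, and the lists were not compared by a test.

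The genes whose patterns over the 8 libraries lay nearest were found by the root mean square difference of centred log2 CPM. For BBC3 they were GJB5, a gap junction protein (0.320), MDM2 (0.321) and LRP1, an endocytic receptor (0.322). For PMAIP1 they were C14orf79 (0.0656), NCEH1 (0.0791) and RIPK4 (0.102), and for BAX CD97 (0.0614), GPX1 (0.0620) and TRAF4 (0.0620). The genes nearest to BBC3 were thus farther from it than those nearest to BAX were from BAX. The distance was not scaled by the size of a gene's changes, which were larger in BBC3 with 5-FU alone. It therefore cannot rank how distinct the 2 patterns were. GJB5 changed by 2.19 with 5-FU alone and by -0.47 with 3-MB-PP1 alone, and NCEH1 by 0.76 and 0.62.

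Scaling by the ERCC spike-ins, which took 2.18% to 4.16% of the authors' library totals, ended 27 of the 29 member calls without turning any. The vehicle libraries held 4.16% and 2.52%, a gap within the group. Gaps were also present with 5-FU (2.70% and 3.25%), 3-MB-PP1 (3.84% and 2.18%) and both drugs (3.61% and 2.88%). Under this scaling BBC3 still rose with 5-FU alone (2.04, adjusted p = 0.00617) and was higher with 5-FU than with 3-MB-PP1 (3.00), while 3-MB-PP1 after 5-FU gave BBC3 a change of -1.50 that did not pass (adjusted p = 0.27), beside -1.37 with TMM. BAX stood at 1.17 with 5-FU alone (adjusted p = 0.41). Every rise or fall above, scaled by TMM, is relative to the other genes of the same libraries.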

How the data were processed

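Total RNA of HCT-116 cells was sequenced from a single end after Ribo-Zero depletion, in 8 libraries of 4 groups, per the labels' protocols. TopHat2 2.0.13 and hg19 appear in the submitters' processing notes. Which program counted reads, with what strand setting and annotation release, is not given in the sources used. The deposited tables list, for 41643 RefSeq transcripts and 92 ERCC spike-ins, a raw read count from the authors without normalization, and the authors' RPKM, deposited beside it. For each symbol the row with the highest mean count among rows that carry the symbol in the tables was kept; rows named by accession alone, some with slightly higher counts (BCL2L11, HRK), were used only for genes with no such row (23885 genes; 6260 rows had no symbol and 5901 of these were named by accession from the RefSeq table of GRCh38.p14).

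Counts were tested with edgeR 4.0.16 in R 4.3.3: filterByExpr with a minimum count of 10 (15705 genes), TMM, 1 fit over all 8 libraries (residual degrees of freedom 4), and two-sided quasi-likelihood F tests with Benjamini-Hochberg adjustment over all genes tested. Calls needed an adjusted p under 0.05, and "rose" and "fell" are used of such calls. Standard errors and 95% intervals were derived from the F statistics, and the fit was tested on simulated data. The common biological coefficient of variation was 0.0423, and log CPM of replicates correlated at 0.993 to 0.994 across genes. Labels number the replicates without saying whether they were independent cultures, so the spread behind the p-values may be technical.

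The members and gene lists were chosen with earlier results of these data known. Named genes were the 10 members, CDKN1A, MDM2 and CDK7, up to 4 called genes per list and comparison by size of change, and 3 nearest patterns each for BBC3, PMAIP1 and BAX; not every such gene is printed, and some are not reported here, and others were chosen after their values were seen (BOK, KRT8 and KRT18, BCL2L1 and MCL1 levels, and the short BCL2L11 rows). The contrast of 5-FU with 3-MB-PP1 was added after seeing the data. Alternatives were RLE factors, spike-in scaling, DESeq2 1.42.0, limma 3.58.1 on log2(RPKM + 0.1) and log2(RPKM + 1), no filter, the longest row per symbol, only the groups compared, a replicate block and each library left out.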

Additional observations from a re-analysis of the deposited data

Results flagged for a closer look

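These values are flagged because the response to 5-FU differed between cells given DMSO and cells given 3-MB-PP1 afterwards, by the interaction in edgeR's quasi-likelihood test at an adjusted p under 0.05. A negative value means that the log2 change with 5-FU was lower when 3-MB-PP1 followed, whatever its sign. Among the pro-apoptotic members PMAIP1 was flagged at -0.45. Among other BCL2 family genes BCL2L1 gave -0.40, BNIP3L -0.79 and BNIP3 -0.51; the change of these last 2 with 5-FU was 0.11 and 0.05 without 3-MB-PP1, neither passing, and -0.68 and -0.46 with it. Among 24 tested p53 targets 7 were called, all lower, and the 4 largest were MDM2 at -0.93, CDKN1A -0.66, PLK3 -0.59 and PHLDA3 -0.51. Of the regulators of members, JUN gave -1.20 and MYC -0.96. BIRC5, a downstream inhibitor of caspases, gave 0.54, where its fall with 5-FU was -1.23 without and -0.69 with 3-MB-PP1. Under spike-in scaling the median interaction of all genes moved to -0.31.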

How the results depend on the processing

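Of 56 member results, 29 were called, and none of their 492 values under the alternatives was a call in the other direction; 49 values of results that did not pass changed sign. RLE factors, no filter, the longest row and only the groups compared changed no member call. Among the tested members the longest row differed from the kept row for BBC3 and BID alone. For the others it was the same row, so their own counts were not put to a test by it. Spike-in scaling ended 27 of the 29 calls and moved the all-gene median to 0.13 with 5-FU alone, where it called 243 genes against 6911 with TMM. With 3-MB-PP1 alone the median was 0.19 (112 genes against 4477), for the inhibitor after 5-FU it was -0.12 (52 against 5177), for 5-FU before the inhibitor -0.19 (140 against 6196) and for the interaction -0.31 (0 against 660). It called 426 genes against 7888 with both drugs and 407 against 8459 for 5-FU against 3-MB-PP1. The split of higher to lower calls under it was 93 to 150 with 5-FU alone (3345 to 3566 with TMM), 107 to 5 with 3-MB-PP1 alone (1821 to 2656), 40 to 12 with 3-MB-PP1 after 5-FU (2473 to 2704), 20 to 120 with 5-FU before 3-MB-PP1 (3084 to 3112) and 115 to 292 for 5-FU against 3-MB-PP1 (4298 to 4161). It left 1 member called with 5-FU alone and 1 for 5-FU against 3-MB-PP1 (BBC3 in both), and 0 in the other comparisons. DESeq2 called 2683 genes and 2 members with 3-MB-PP1 alone, 3378 genes with 3-MB-PP1 after 5-FU and 377 for the interaction. limma called 137 (RPKM + 0.1) and 141 (RPKM + 1) genes and 0 members for the interaction, split 27 higher to 110 lower and 30 to 111 (335 to 325 with edgeR). The cause of these differences was not tested.

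Leaving out each library in turn gave 2994 to 4563 genes and 2 to 4 members with 3-MB-PP1 alone (2 members without 3-MB-PP1 replicate 1), 3334 to 5364 genes and 1 to 3 members with 3-MB-PP1 after 5-FU (the lowest without both-drug replicate 2), and 250 to 916 genes and 0 to 1 member for the interaction. The interaction count moved most without vehicle replicate 1 (250), both-drug replicate 2 (280, split 87 to 193), 5-FU replicate 1 (328), 3-MB-PP1 replicate 1 (352) or both-drug replicate 1 (404). In all, 7 member results lost a call without a library. PMAIP1 was called higher with 5-FU than with 3-MB-PP1 without 5-FU replicate 1 (0.23, adjusted p = 0.0283).

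No shared effect of the replicate number was seen: deviations of same-numbered libraries correlated at -0.06 to 0.04. Whether same-numbered samples were handled together is not given, and these correlations cannot decide it. A fit with the replicate number as a block called 6947, 4514, 5227, 6241, 7926, 8495 and 676 genes in the 7 comparisons (the interaction last) and changed no member call. Depth limits BMF and HRK, at 2 to 22 counts per library.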
